A study of Oryza sativa with 3 samples.

Results

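Fragments of alanine tRNA that were at least 16 nt long were examined in the small RNAs of rice (Oryza sativa) male spores. The members were taken from the deposited fragment lists by a rule on label and length, chosen with earlier results of these data known. It took every sequence whose listed anticodon was AGC, CGC, TGC or GGC, the anticodons of tRNA-Ala, and whose length reached 16 nt. This gave 439 distinct sequences among the 18424 of all 3 lists, with 165 in the uninucleate microspore list (UNM), 388 in the bicellular pollen list (BCP) and 167 in the tricellular pollen list (TCP). No sequence carried the anticodon GGC. All groups are field-grown spores of the cultivar Guichao No.2, with no treatment or genotype change given in the labels, separated by stage on sucrose gradients. The microspore is the haploid cell left by meiosis, bicellular pollen holds a generative cell inside the vegetative cell, and in tricellular pollen the generative cell has given the sperm cells. The fragments reached 128987 of 686685 listed tRNA reads in UNM and 577393 of 4958412 in BCP. The numbers of the TCP list do not exceed 28 and were not used as reads, so that stage enters only through the sequences it lists. Each stage has 1 library, so stage and library cannot be told apart and no test between stages was made. Intervals in parentheses are exact 95% limits of counting error, and every percentage of reads is of a library's listed tRNA reads unless another total is named. No cell type marker is in these lists, so the purity of the spores was not examined.

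As background, a tRNA folds into an acceptor stem, a D arm, an anticodon arm and a T arm, and cuts in the loops release fragments that keep its 5′ or its 3′ side. In Arabidopsis, ribonucleases of the RNS family cut tRNAs in the D, anticodon and T regions, and short 5′ fragments have been found bound to Argonaute proteins. Alanine is read by several isoacceptors, which are tRNAs for the same amino acid with different anticodons.

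Nearly all of these reads belonged to 3 nested series that begin at the first base of the tRNA and end at different places. Their shortest members, and the scarce start of the AGC isoacceptor, are shown here 5′ to 3′ because they separate the isoacceptors, with the positions that differ (counted from 1 at the 5′ end) in capitals.
TGC series, 16 nt: ggggATgtagctcaAa
CGC T6C series, 16 nt: ggggACgtagctcaTa
CGC A5G series, 16 nt: ggggGTgtagctcaTa
AGC start, 16 nt: ggggATgtagctcaGa

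Against the TGC start, the first CGC start carries T6C and A15T, the second CGC start A5G and A15T, and the AGC start A15G. The names of the series follow these changes. The longest listed member of the TGC series, present in the TCP list alone, shows where the longer ends lie, with the anticodon in capitals.
TGC series, 40 nt: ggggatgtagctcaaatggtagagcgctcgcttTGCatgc

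Counted in this way, the anticodon stood at positions 34 to 36 in all 37 members that span them, under the label of the list. Ends at position 16 thus lie in the D loop, an end at position 25 is the last base of the D arm, and an end at position 32 is the first base of the anticodon loop. The 25-nt and 32-nt members are printed because the shares at these ends were higher in BCP in each series, with the same differing positions and the last base in capitals.
TGC series, 25 nt: ggggATgtagctcaAatggtagagC
CGC T6C series, 25 nt: ggggACgtagctcaTatggtagagC
CGC A5G series, 25 nt: ggggGTgtagctcaTatggtagagC
TGC series, 32 nt: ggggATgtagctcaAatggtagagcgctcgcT
CGC T6C series, 32 nt: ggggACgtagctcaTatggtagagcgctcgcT
CGC A5G series, 32 nt: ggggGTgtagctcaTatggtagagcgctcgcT

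Taken as a whole, the fragments made up 18.8% (18.7 to 18.9) of the UNM and 11.6% (11.6 to 11.7) of the BCP list, which is 1.61-fold lower in BCP (1.60 to 1.62). A share depends on all other listed reads: on totals that leave out tRNA-Asp, the log2 ratio of BCP to UNM was -0.058 in place of -0.69. Just below the length limit, tRNA-Ala reads of 15 nt held 6.98% of UNM and 1.33% of BCP reads, while those of 16 nt held 13.7% and 9.91% and those of 17 nt 0.771% and 0.109%. All tRNA-Ala reads of at most 15 nt had 28.3% in UNM and 2.21% in BCP. Set against tRNA-Ala reads of any length instead, the fragments of 16 nt or more were 2.11-fold higher in BCP. Sequences starting at position 1 made up 98.0% of the fragments' reads in UNM (97.9 to 98.1) and 98.9% in BCP (98.9 to 99.0).

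The isoacceptors differed in their shares. Fragments with the anticodon TGC had a share of 13.2% in UNM (13.1 to 13.3) and of 5.79% in BCP (5.77 to 5.81), 2.28-fold lower (2.26 to 2.30). Those with CGC had 5.28% (5.22 to 5.33) and 5.76% (5.74 to 5.79), and those with AGC 0.319% (0.305 to 0.332) and 0.092% (0.089 to 0.095), 3.47-fold lower (3.29 to 3.65). As a share of all tRNA-Ala reads, however, TGC turned to 1.49-fold higher in BCP, and AGC had a log2 ratio of -0.029 whose interval (-0.103 to 0.046) includes 0. Within the fragments, TGC held 70.2% in UNM and 49.7% in BCP, and CGC 28.1% and 49.5%. All sequences of the 3 series carried the same label in every list that held them.

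The AGC label stood apart in where its reads lay. Only 3.43% of its UNM reads (2.71 to 4.28) and 0.856% of its BCP reads (0.609 to 1.17) began at position 1, beside 99.4% and 99.8% for CGC and 99.8% and 99.7% for TGC. Most of its reads, 2063 in UNM and 4240 in BCP, began at positions 38 to 44 instead. The AGC start of 16 nt had 58 reads in UNM and 35 in BCP, and the 5 listed sequences with this start had 74 and 38 together. The TGC start of the same length had 62222 and 234952 reads. The rice gene table (assembly ASM3414082v1, Japonica) annotates 19 tRNA-Ala genes with AGC, 11 with CGC and 10 with TGC, so the isoacceptor with the most annotated genes had the fewest 5′ reads of 16 nt or more. The first 14 bases of the AGC and TGC starts are identical, and shorter fragments cannot be assigned to one of them by sequence.

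The 16-nt starts were the 3 most abundant fragments of BCP and 3 of the 4 most abundant of UNM. The TGC start had 62222 reads in UNM and 234952 in BCP, which is 9.06% (8.99 to 9.13) and 4.74% (4.72 to 4.76) of reads, 1.91-fold lower in BCP (1.90 to 1.93). The CGC T6C start had 22423 and 216521 reads, or 3.27% (3.22 to 3.31) and 4.37% (4.35 to 4.38), 1.34-fold higher (1.32 to 1.36). The CGC A5G start had 8313 and 37760 reads, or 1.21% (1.18 to 1.24) and 0.762% (0.754 to 0.769), 1.59-fold lower (1.55 to 1.63). All 3 differed by less than 2-fold between the libraries, and not in the same direction. Among tRNA-Ala reads of 16 nt, the TGC start held 66.0% in UNM and 47.8% in BCP, the CGC T6C start 23.8% and 44.04%, and the CGC A5G start 8.82% and 7.68%. On totals without tRNA-Asp the log2 ratio of the A5G start was -0.037 and that of all 16-nt fragments turned to 0.16.

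Fragments of 18 to 21 nt, which end inside the D arm, had lower shares in BCP in every series. In the TGC series the 19-nt fragment, ggggatgtagctcaaatgg, counted 8760 reads in UNM against 4970 in BCP, 1.28% and 0.100%, a share 12.7-fold lower (12.3 to 13.2). The 20-nt fragment had 6580 and 3627 reads, 13.1-fold lower (12.6 to 13.6), and the 18-nt fragment 2288 and 1260 reads, also 13.1-fold lower (12.2 to 14.1). The 17-nt fragment with 4889 and 4066 reads was 8.68-fold lower (8.33 to 9.05), and the 21-nt fragment with 3514 and 3201 reads 7.93-fold lower (7.55 to 8.32). Every length from 17 to 21 nt of this series thus had fewer reads in BCP than in UNM, although the BCP total was 7.22 times as large. In the CGC T6C series the 4 lengths from 18 to 21 nt were 2.72-fold to 8.82-fold lower, with 399 to 1445 reads in UNM and 1061 to 2319 in BCP. In the CGC A5G series the same 4 lengths were 2.99-fold to 11.1-fold lower, with 82 to 187 reads in UNM and 82 to 332 in BCP. The CGC fragments of 17 nt had 27 and 151 reads in the T6C series and 15 and 97 in the A5G series, and the intervals of both ratios include 1.

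At 22 to 24 nt the shares came closer together. The TGC fragments of these lengths were 1.85-fold to 5.08-fold lower in BCP, those of the CGC T6C series 1.23-fold to 1.93-fold lower, and in the CGC A5G series the ratio of BCP to UNM lay between 0.571 and 2.11, on 8 to 18 UNM reads a length. For the 24-nt CGC T6C fragment the interval of the ratio, 0.815 (0.588 to 1.15), includes 1.

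At 25 nt, the end of the D arm, the direction was the opposite in each series. For the TGC fragment there were 810 UNM and 20920 BCP reads, 0.118% (0.110 to 0.126) and 0.422% (0.416 to 0.428), 3.58-fold higher in BCP (3.33 to 3.84). The CGC T6C fragment had 51 and 2254 reads, 6.12-fold higher (4.64 to 8.25). The CGC A5G fragment had 12 and 14794 reads, 171-fold higher (97.7 to 330), the largest ratio among the members compared. In BCP it stood far above its neighbours, which had 122 reads at 24 nt and 2 at 26 nt. For every 100 reads of its 16-nt start, the 25-nt fragment had 39.2 reads in BCP in the CGC A5G series, 8.90 in the TGC series and 1.04 in the CGC T6C series. In UNM the same figures were 0.144, 1.30 and 0.227. As parts of their series in UNM, the 25-nt fragments of both CGC series had overlapping intervals, 0.135% (0.070 to 0.235) for A5G and 0.188% (0.140 to 0.247) for T6C, so only the BCP order of these 2 is settled by the counts.

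From 26 to 30 nt few reads were listed in either library, with 20 in UNM and 487 in BCP over all members. At 32 nt, next to the anticodon, all 3 series were higher in BCP. The 32-nt TGC fragment had 63 and 7224 reads, 15.9-fold higher (12.4 to 20.7), and the 31-nt one 17 and 1675, 13.6-fold (8.50 to 23.5). The 32-nt CGC T6C fragment had 12 and 3231 reads, 37.3-fold higher (21.3 to 72.2), and the 31-nt one 2 and 309, 21.4-fold (5.87 to 177). The 32-nt CGC A5G fragment had 2 and 317 reads, 21.95-fold higher (6.03 to 182), and the 31-nt one 0 and 88. The order of these folds is not settled by the counts, since the intervals of the 3 series at 32 nt overlap for all pairs except the TGC and CGC T6C fragments. The 33-nt versions were uneven between lists: the TGC one had 8 reads in UNM and 360 in BCP, while the CGC T6C one had 4 and 0 and the CGC A5G one 2 and 0, although TCP lists all 3.

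The position of the end within each series also differed between series in the same library. Of the TGC series, 68.9% of UNM reads ended at 16 nt, 5.41% at 17 nt (5.26 to 5.56) and 23.4% at 18 to 21 nt. Of the CGC T6C series, 82.7% ended at 16 nt, 0.100% at 17 nt (0.066 to 0.145) and 15.6% at 18 to 21 nt. The CGC A5G series had 93.4%, 0.169% (0.094 to 0.278) and 5.83%. An end at 17 nt was thus far more frequent in the TGC series than in either CGC series, in BCP too, with 1.42% against 0.065% and 0.179%. In BCP the part ending at 18 to 21 nt was 4.56% in the TGC series, 2.94% in the CGC T6C series and 1.32% in the CGC A5G series, the same order as in UNM. The part ending at 25 nt was 7.31%, 0.975% and 27.4%.

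The length pattern was set beside that of all other tRNAs, from 16 nt on. At 16 nt the shares of reads had like ratios of BCP to UNM, 0.722 for tRNA-Ala (0.717 to 0.727) and 0.732 for the others (0.727 to 0.738), and tRNA-Ala supplied 53.8% of all UNM and 53.4% of all BCP reads of that length. At 17 nt the directions were opposite, with a ratio of 0.141 for tRNA-Ala (0.136 to 0.147) and 2.45 for the others (2.41 to 2.49). From 18 to 21 nt the fold by which BCP lay below UNM was 8.47 for tRNA-Ala (8.32 to 8.62) and 3.86 for the others (3.83 to 3.88). At 22 to 24 nt the ratio was 0.497 for tRNA-Ala (0.470 to 0.525) and 1.97 for the others (1.91 to 2.03). At 25 nt tRNA-Ala was 6.02-fold higher (5.63 to 6.44) and the others 2.03-fold higher (1.92 to 2.16), so that tRNA-Ala made up 43.6% of all 25-nt reads in UNM (41.4 to 45.8) and 69.5% in BCP (69.2 to 69.9). The CGC A5G fragment alone held 12 of the 874 UNM and 14794 of the 37977 BCP reads of tRNA-Ala at 25 nt. The summed tRNA-Ala ratio thus rests in part on 1 sequence. At 31 to 33 nt the ratios were 16.7 (13.8 to 20.3) and 17.6 (17.3 to 17.9), with overlapping intervals. This class held 2.30% of tRNA-Ala reads from 16 nt on in BCP and 43.8% of those of the other tRNAs, and 0.085% and 4.30% in UNM.

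Reads that did not start at position 1 lay mostly just behind the anticodon. Members starting at positions 38 to 44 counted 2330 UNM and 4604 BCP reads, 0.339% (0.326 to 0.353) and 0.093% (0.090 to 0.096), 3.65-fold lower in BCP (3.48 to 3.84). They run from the anticodon arm into the T arm and come in forms that differ by T47C and A54T, printed with these positions in capitals.
AGC label, start 41, 16 nt: gagaggTacggggAtc
AGC label, start 38, 19 nt: tgcgagaggTacggggAtc
TGC label, start 41, 16 nt: gagaggCacggggTtc
CGC label, start 38, 19 nt: tgcgagaggCacggggTtc

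The first of these, the most abundant AGC member, counted 908 UNM and 1099 BCP reads and was 5.97-fold lower in BCP (5.46 to 6.52). The 19-nt AGC form had 459 and 788 reads, 4.21-fold lower (3.74 to 4.73). The other 16-nt form had 79 and 82 reads, 6.96-fold lower (5.04 to 9.59), and the 19-nt sequence labelled CGC 41 and 23 reads, 12.9-fold lower (7.54 to 22.5). The 16-nt sequence labelled TGC lies wholly within this 19-nt one, and some sequences of this form were labelled CGC in UNM and TGC in BCP. The label thus does not separate TGC from CGC here. Starts at positions 38 and 41 were the most frequent in UNM, with 811 and 1032 reads.

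Fragments from the 3′ end of the tRNA were rare. Members whose last base is at position 73 or later had 19 reads in UNM and 194 in BCP, and a ratio of shares of 1.41 whose interval (0.881 to 2.40) includes 1. Of these, 12 sequences end at position 75, after CC of the terminal CCA, with 17 and 155 reads, and no member with an assigned position ends with the final A at position 76. The 7 members with an assigned position that end in CCA stop at position 73, where these letters belong to the acceptor stem and the base after it. Members without an assigned position are not in these counts. How the CCA end was handled in mapping is not given in the sources used here. The 19-nt AGC fragment gataccccgcatctccacc, from position 57 to 75, had 0 reads in UNM and 52 in BCP, at least 1.88-fold higher by the exact limit, and 2.40-fold higher with UNM set to 3 counts.

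Single sequences were counted as higher or lower when they had at least 50 reads in both libraries together, a ratio of shares of at least 2-fold and an interval that excluded 1. Of 1794 sequences of all tRNAs and lengths compared so, 68.2% were higher and 17.2% lower in BCP, and of 1408 sequences of 16 nt or more from other tRNAs 78.9% were higher and 9.02% lower. Of the 439 tRNA-Ala members, 63 could be compared. Of these, 17 (27.0%) were higher, 28 (44.4%) lower and 18 neither, with a median log2 ratio of -0.89, against 2.01 over all sequences and 2.41 over those of other tRNAs. The minimum admits more sequences of the deeper BCP library, and when BCP was thinned down to as many reads as UNM, 9 of 40 were higher and 23 lower. The thinned counts of other tRNAs are given by length below. The remaining 376 members were below the minimum, and 153 of them had a single read.

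The calls differed by length. At 16 nt 5 of 10 members were lower and 0 higher, beside 15 lower and 77 higher of 127 sequences of other tRNAs. At 17 to 24 nt 23 of 39 were lower and 4 higher, whereas in the same length range of other tRNAs 91 of 524 were lower and 332 higher. From 25 nt on 13 of 14 members were higher and 0 lower, beside 702 higher and 21 lower of 757 sequences of other tRNAs. Of these 14 members, 11 had fewer than 50 reads in UNM and passed the minimum only through BCP, so their count supports nothing by itself. The same held for 1 of 10 members and 105 of 127 others at 16 nt, and for 19 of 39 and 421 of 524 at 17 to 24 nt. From 25 nt on it held for 685 of 757 others. The counts at full depth are therefore not an even comparison of members and others. With BCP thinned to as many reads as UNM, 0 members were higher and 5 of 9 lower at 16 nt. Of other tRNAs at that length, 23 of 43 sequences were higher and 9 lower. At 17 to 24 nt 0 members were higher and 18 of 22 lower, beside 103 higher and 67 lower of 209 others. From 25 nt on 9 of 9 members were higher, beside 272 higher and 19 lower of 304 others. Most of these 9 members had fewer than 50 UNM reads and still passed the minimum only through BCP, so this count supports nothing by itself either. The 4 members of 17 to 24 nt that were higher at full depth, named after their values were seen, were the 24-nt CGC A5G fragment with 8 and 122 reads, the tail fragment of 19 nt given above, a 22-nt fragment that starts at position 4 with 1 and 54 reads, and a 19-nt fragment that starts at position 2 with 0 and 107 reads. All 4 had fewer than 50 UNM reads and passed the minimum only through BCP, so their calls support nothing by themselves. Among the 15 compared members that start at positions 38 to 44, 10 were lower and 0 higher, with a median log2 ratio of -1.67. Of the 1408 compared sequences of 16 nt or more from other tRNAs, 127 were lower and 1111 higher. Positions were not assigned to other tRNAs, so no count at the same positions stands beside it. Members of 1 series are nested and share their start, and the members that start at positions 38 to 44 overlap in sequence. Neither set therefore counts as independent.

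Starts just after position 1 were scarce. Those at positions 2 to 5 had 100 reads in UNM and 732 in BCP, 0.015% of reads in both, with a ratio of 1.01 (0.822 to 1.26). The labels went in opposite directions, with a ratio of 2.06 for CGC (1.37 to 3.23) and 0.665 for TGC (0.517 to 0.864). Position could not be assigned to 56 members, which had 9 reads in UNM and 116 in BCP, and 53 of them carried the label TGC. The bases agttgg, which the D loop of plastid tRNA-Ala and of other tRNAs holds, occurred in 26 members with 6 reads in UNM and 68 in BCP.

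TCP listed 167 of the members, of which 96 were also in UNM and 139 in BCP, and 89 were in all 3 lists. Of the 63 members compared above, 61 were listed in TCP. For each of the 3 series TCP listed all 10 lengths from 16 to 25 nt, and in all it held 20 TGC, 17 CGC T6C and 14 CGC A5G sequences, beside 18, 16 and 12 in UNM and 20, 17 and 17 in BCP. By length, 12.6% of the TCP members had 30 nt or more, beside 8.48% of the UNM and 11.9% of the BCP members, counted as distinct sequences. By position, 33.5% of the TCP members, 31.5% of the UNM members and 15.7% of the BCP members began at position 1. TCP alone held 21 members, BCP alone 203 and UNM alone 23, and the number of listed sequences depends on depth, which is not known for TCP. Of all 18424 sequences, UNM listed 5477, BCP 14717 and TCP 8633. Overlaps among all sequences are not given here, so those of the members are not read as particular to tRNA-Ala.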

How the data were processed

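Small RNA libraries of 3 spore stages were used, 1 per stage. The submitters' processing notes name Bowtie 1.1.2, without its reference or options. Per the file headers each list gives anticodon, sequence and count. For UNM and BCP the deposited count holds whole, unnormalized reads, 686685 and 4958412 in all. The TCP numbers the authors deposited repeat along nested sequences and do not exceed 28, so they served as a list only.

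Sequences were joined by identity. Labels differed between lists for 10 members, never in amino acid. Positions were counted from GGGG starts that hold the motif of positions 8 to 14 (T, purine, any base, pyrimidine, any 2 bases, A) and passed on through 12 shared bases, a rule added after the data were seen, which placed 383 of 439 members. Shares have Clopper-Pearson and ratios exact conditional binomial intervals (Python 3.11.15, scipy 1.17.1). A ratio with a 0 used 3 counts, 0.000437% of UNM and 6.05e-05% of BCP reads. No molecular identifiers are recorded, and the intervals, like the floors, cover counting error only. The calls were tested on simulated data.

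Named by rule were the 6 most abundant members in each library, the 4 largest ratios in either direction, and the most abundant per anticodon and length class. Further sequences were added with their values known, and the members and lists were chosen with earlier results of these data known. Alternatives changed the total, the lengths, the minimum, the fold, the labels and the depth of BCP.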

Additional observations from a re-analysis of the deposited data

How the results depend on the processing

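The share of the fragments in BCP against UNM had a log2 ratio of -0.69. It was -0.058 without tRNA-Asp reads in the total, -1.55 from 17 nt on, -0.49 among sequences of at most 33 nt and -0.49 without the most abundant member. Leaving out the 10 sequences with the largest mean share also took the members among them out of the fragments, and the remaining fragments had -1.70. As a share of all tRNA-Ala reads the log2 ratio of the fragments turned to 1.08. On that total TGC turned to 0.58 and the 16-nt class to 1.30, and without tRNA-Asp reads the 16-nt class turned to 0.16. A minimum of 10 reads gave -0.69, as did sequences with the same label in every list. Of 17 members higher and 28 lower, a minimum of 200 summed reads left 9 and 18 of 35, and BCP thinned to the UNM total left 9 higher. The counts from 10 summed reads on, at 4-fold, without tRNA-Asp reads and from 17 nt on stayed within 1.5 times. The cause of these shifts was not tested, except that a change of the totals alone moves every log2 ratio by the same amount. It was 0.63 upward without tRNA-Asp and 1.77 upward on tRNA-Ala reads, since both changes reduced the BCP total more than the UNM total. No paired analysis was possible because each stage has 1 library. The smaller UNM library leaves ratios of members with few reads there wide, and 0 reads in it allow a share of up to 0.000537% by the exact limit.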
